A study of Oreochromis niloticus and Pundamilia nyererei with 6 samples.

Results

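Stranded transcripts that lay on unplaced scaffolds of the Oreochromis niloticus (Nile tilapia, ON) genome were described in liver. A transcript was a member where its strand was given as plus or minus and the name of its sequence began with NW_, the prefix that RefSeq gives to scaffolds. This held for 2856 of the 41456 listed ON transcripts and of the 87422 transcripts listed over both species of the series. They lay on 633 scaffolds. The 30191 stranded transcripts on the 23 sequences whose names begin with NC_0319, here called chromosome sequences, served for comparison, and members made up 8.64% of both sets. The 3 ON fish were tank-reared males of about generation 93 of a stock from Manzala, Egypt, with 1 liver library each of rRNA-depleted total RNA. No treatment was given, no group was contrasted, and the Pundamilia nyererei fish were used only for the count above. The fish are numbered 1 to 3 as in the labels.

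A genome assembly is put together from overlapping pieces, and pieces that cannot be anchored to a chromosome are kept as unplaced scaffolds. Such scaffolds often hold repeated or recently duplicated sequence, since copies that resemble each other are hard to order. Most vertebrate genes are split into exons that are joined by splicing, so a transcript cut by the end of a short scaffold can keep only part of its exons. The tables give serial names without gene symbols, so no member was tied to a gene, liver markers could not be checked, and no sequence is shown.

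Abundance was given as FPKM, a fragment number scaled to transcript length and to the size of the library. From 1978219389 to 1997213175 aligned bases stood behind the values of a library. An FPKM that 3 reads would give was at most 0.0804 for a member of median length and 0.0450 for a chromosome transcript of median length, which covers counting error only. The sources used here do not say how reads that align at several places were counted, and this bears on every value from repeated sequence.

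Members had fewer exons and were shorter than chromosome transcripts. The median exon number was 3 (quartiles 2 and 7) on scaffolds and 7 (quartiles 4 and 13) on chromosome sequences. A single exon was listed for 383 members (13.4%), against 5.76% of chromosome transcripts. Another 1131 members (39.6%) had 2 to 3 exons, against 19.0%. At the other end, 431 members (15.1%) had 10 or more exons, against 38.5%. Members with 40 or more exons numbered 11 of 2856, against 484 of 30191 chromosome transcripts. The median length was 1416 bases against 2525, and the median span on the genome 4469 bases against 8433. Members were also shorter at a like exon number, with medians of 817 against 1653 bases at 2 to 3 exons and 3347 against 3757 bases at 10 or more. Among spliced transcripts the median of the mean gap between exons was 925 bases on scaffolds and 828 bases on chromosome sequences. Exon number and length belong to the merged transcript set, so they carry no error between fish.

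**Figure D1:**
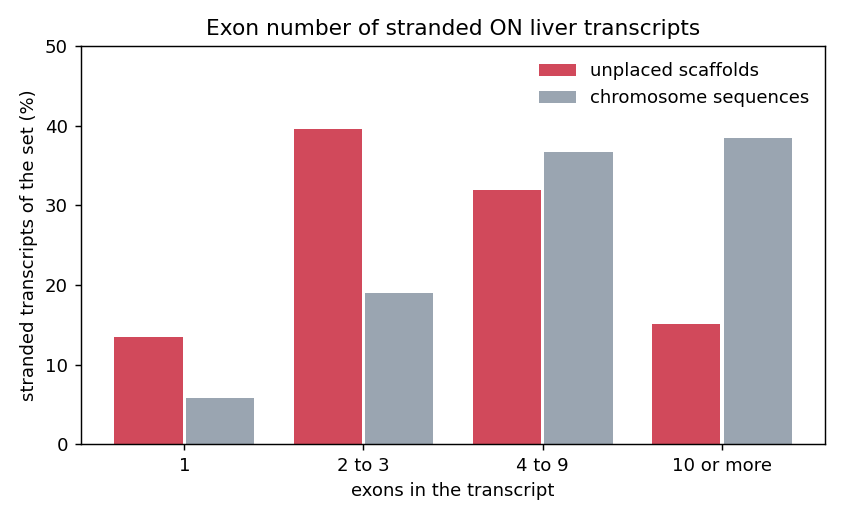
Percent of stranded transcripts (vertical axis) in each class of exon number (horizontal axis), for unplaced scaffolds and for chromosome sequences. Transcripts of 1 exon and of 2 to 3 exons take 13.4% and 39.6% on scaffolds against 5.76% and 19.0% on chromosome sequences, and those of 10 or more exons 15.1% against 38.5%.

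The 23 chromosome sequences taken singly gave the spread between sequences. Their median exon number ran from 4 to 9 and their median length from 1620 to 2843 bases, so the pooled scaffolds lay below every one. The percent of transcripts with 1 exon ran from 3.28% to 10.5%, below the scaffolds in all 23. The sequence nearest to the scaffolds in both medians was NC_031968.1, with a median of 4 exons and a median length of 1620 bases. It had 38.6% of transcripts at 2 to 3 exons. In the percent with 1 exon the nearest was NC_031974.1, at 10.5%. The next lowest median exon number, 5, was that of NC_031967.1. These are descriptions of 1 transcript set, without a test.

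Members were spread thinly. Of the 633 scaffolds, 256 carried 1 member each, 309 carried 2 to 9 and 68 carried 10 or more, and the median was 2. The 68 scaffolds with 10 or more held 1416 members (49.6%). The median exon number was 3, 3 and 4 in the order of these classes, and the median length rose from 836 to 1262 and 1625 bases. Transcripts of 2 to 3 exons made up 59.8%, 42.7% and 33.3% of the members. The scaffolds with the fewest members were thus those whose members had the shortest median length, and the last listed end of a transcript lay at a median of 18976 bases on them. Detection in all 3 fish was 50.4%, 49.5% and 55.2% in the same order. The median log2 FPKM of detected members was -0.63 ± 0.17, -0.72 ± 0.12 and -0.72 ± 0.13 (SD, n = 3), which differ by no more than the spread between fish. Scaffolds with 1 member held 8.96% of the members and 33.5%, 36.7% and 22.0% of their summed FPKM in fish 1, 2 and 3. Nearly all of this came from mRNA36988 and mRNA37292, and the other 254 scaffolds of the class held 2.91%, 3.44% and 2.60%.

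Fewer members than chromosome transcripts were detected in every fish. In fish 1, 2 and 3 an FPKM above 0 was listed for 75.7%, 73.1% and 74.3% of members, and for 83.5%, 82.4% and 82.9% of chromosome transcripts. The difference was -8.59 ± 0.78 percentage points (SD, n = 3), lower in 3 of 3 fish (two-sided exact sign-flip permutation test, p = 0.25). With 3 fish this test cannot give less than 0.25. An FPKM of 1 or more was reached by 905, 865 and 860 members (31.7%, 30.3% and 30.1%), against 41.9%, 42.4% and 42.6% of chromosome transcripts. This difference was -11.6 ± 1.2 percentage points (SD, n = 3), again lower in 3 of 3 fish (exact sign-flip permutation test, p = 0.25). Both differences exceed the spread between fish several times, although no p under 0.05 can be reached. The 3 fish share 1 transcript list, so this spread does not cover how far sequences differ from each other. The range over single chromosome sequences is given below for detection in all 3 fish. In all, 7 comparisons were made with this test, and after Benjamini-Hochberg adjustment a p of 0.25 becomes 0.292 and a p of 0.5 stays at 0.5.

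The set of members seen in every fish was smaller still. An FPKM above 0 in all 3 fish was listed for 1497 members (52.4%) and for 20383 chromosome transcripts (67.5%), where 66.2% of all stranded transcripts of both sets were so detected. An FPKM of 1 or more in all 3 fish was reached by 615 members (21.5%) and by 33.8% of chromosome transcripts, against 32.7% of both sets. At or above the FPKM of 3 reads in all 3 fish lay 43.6% of members and 60.9% of chromosome transcripts, a level chosen after seeing the data. Only 31 members (1.09%) were listed at 0 in all 3 fish, against 0.768% of chromosome transcripts. Most of the shortfall therefore lay in members listed in some fish and not in others. The methods state that unexpressed transcripts were removed, so this follows largely from how the list was made. Over single chromosome sequences the percent detected in all 3 fish ran from 53.7% on NC_031968.1 and 62.4% on NC_031967.1 to 72.2% on NC_031980.1. At an FPKM of 1 or more in all 3 fish NC_031968.1 lay below the scaffolds, at 17.7%, and the other 22 sequences lay above them.

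**Figure D2:**
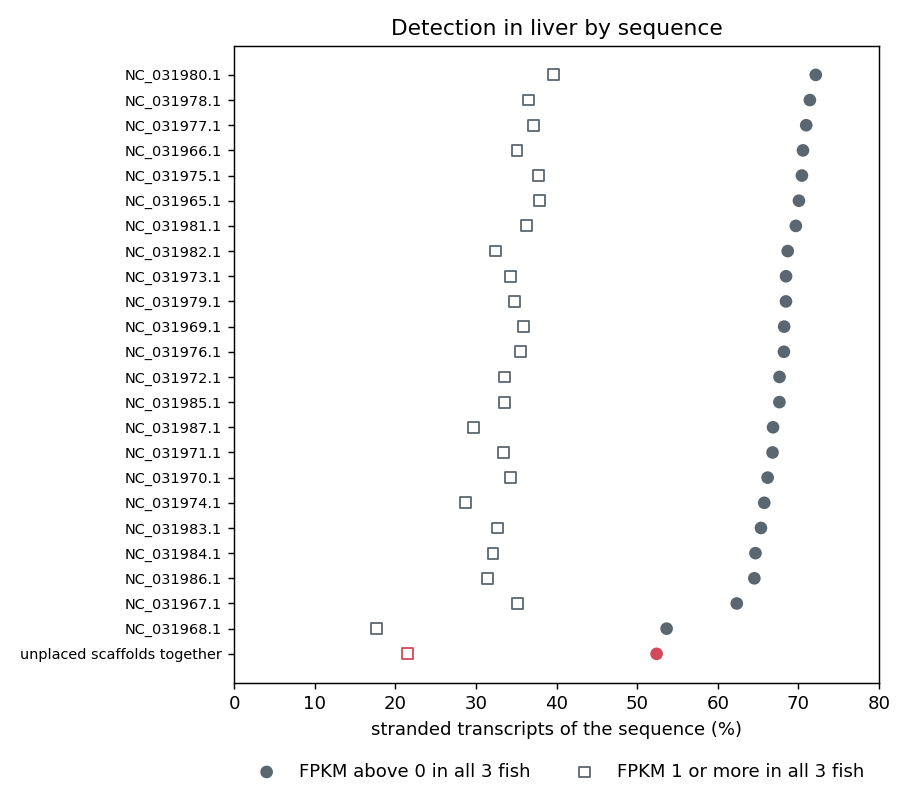
Percent of the stranded transcripts of each sequence (horizontal axis) with an FPKM above 0 (filled circles) or of 1 or more (open squares) in all 3 fish, for 23 chromosome sequences and, in red, for all unplaced scaffolds pooled. The scaffolds lie lowest at 52.4% for the first measure and above NC_031968.1 alone, at 21.5% against 17.7%, for the second.

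Detected members were also less abundant. Among transcripts above 0 in a fish the median FPKM was 0.622, 0.621 and 0.582 for members in fish 1, 2 and 3, and 1.01, 1.10 and 1.08 for chromosome transcripts. On the log2 scale members were lower by 0.80 ± 0.10 in the median (SD, n = 3), and lower in 3 of 3 fish (exact sign-flip permutation test, p = 0.25). With FPKM summed over overlapping transcripts of a strand the difference was -1.08. Among transcripts at an FPKM of 1 or more in all 3 fish it was -0.19 ± 0.14 (SD, n = 3), a value that the common minimum itself draws towards 0. A mean FPKM under 1 was listed for 1914 members (67.0%) and for 56.4% of chromosome transcripts. Between 10 and 100 lay 128 members (4.48%) against 6.93%, and between 100 and 1000 lay 28 (0.980%) against 1.35%. At 1000 or more the shares lay close, with 10 members (0.350%) against 85 chromosome transcripts (0.282%), and 10 members are too few to give an order.

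Exon number was taken into account by comparing within classes, but length was not. Members were shorter in each class, with medians of 1609 against 2031.5 bases at 4 to 9 exons. Whether length bears on the differences within classes was not tested. The difference in abundance was widest for transcripts of 4 to 9 exons. There the median log2 FPKM of detected members was -0.97, -0.99 and -0.94 in fish 1, 2 and 3, against 0.21, 0.37 and 0.32 on chromosome sequences. This difference of -1.26 ± 0.09 (SD, n = 3) was below 0 in 3 of 3 fish (exact sign-flip permutation test, p = 0.25). In each fish it was larger in size than the difference of any other class, a ranking given without a test. At 10 or more exons members were lower by 0.48 ± 0.13 (SD, n = 3), in 3 of 3 fish (exact sign-flip permutation test, p = 0.25). At 2 to 3 exons the difference was -0.18 ± 0.14 (SD, n = 3), with fish 1 at -0.02 (exact sign-flip permutation test, p = 0.25). At 1 exon the difference was 0.05, -0.22 and -0.20 in fish 1, 2 and 3, which do not share a direction (exact sign-flip permutation test, p = 0.50). Detection in all 3 fish was lower for members in each class, though not in the order of the abundance differences. It was 72.3% of members at 1 exon against 75.7% of chromosome transcripts, 43.4% against 58.5% at 2 to 3 exons, 50.6% against 67.3% at 4 to 9 and 62.2% against 71.0% at 10 or more. Whether the classes differ from each other was not tested.

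**Figure D3:**
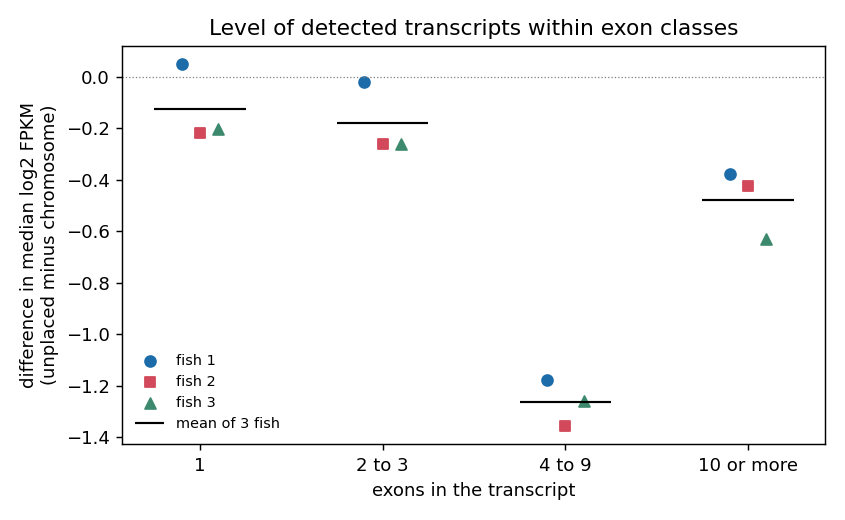
Difference between unplaced scaffolds and chromosome sequences in the median log2 FPKM of detected transcripts (vertical axis) in each class of exon number, with 1 symbol for each fish and a bar at the mean. Transcripts of 4 to 9 exons lie lowest at a mean of -1.26, and those of 1 exon lie on both sides of 0.

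NC_031968.1, the chromosome sequence nearest to the scaffolds in median exon number, median length and detection in all 3 fish, was compared with them directly. This choice was made after the data were seen and partly for its low detection, so the values are given without a test. In median log2 FPKM averaged over the fish, NC_031974.1 lay nearer to the scaffolds, at -0.38 against -0.72. On NC_031968.1 an FPKM above 0 was listed for 77.3%, 72.6% and 75.3% of 1422 transcripts in fish 1, 2 and 3. Members differed from this by -0.74 ± 1.04 percentage points (SD, n = 3), less than the spread between fish. In abundance members lay above it, since the median log2 FPKM was -1.28, -1.13 and -1.22 on NC_031968.1 and members were higher by 0.49 ± 0.09 (SD, n = 3) in 3 of 3 fish. An FPKM of 1 or more was also reached by more members, by 4.58 ± 0.86 percentage points (SD, n = 3).

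A small number of members held most of the abundance. Members took 7.45%, 7.51% and 6.08% of the summed FPKM of both sets in fish 1, 2 and 3, or 7.01% ± 0.81 (SD, n = 3), beside their 8.64% of transcripts. Their share of aligned bases was 7.01% ± 0.75 (SD, n = 3). The 10 most abundant transcripts of a fish took 67.8% ± 2.3 of the members' summed FPKM and 35.5% ± 5.3 of that of chromosome transcripts (SD, n = 3). These 2 shares are not on a like footing. A fixed 10 is a larger part of 2856 members than of 30191 chromosome transcripts. By scaffold, the 10 leading ones held 70.8% of the summed mean FPKM of members. No member reached an FPKM of 1 in all 3 fish on 380 of the 633 scaffolds. This count depends on members per scaffold, since the median was 2 and 21.5% of all members reached that level.

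The most abundant member, mRNA36988, had 3 exons in 740 bases and was the only member of NW_017613966.1, from 1327 to 26597 on the minus strand. Its FPKM was 12177, 12425 and 6852 in fish 1, 2 and 3, a mean of 10484 ± 3149 (SD, n = 3) that placed it at rank 8 of all stranded transcripts of both sets. Fish 3 was the low one. The next, mRNA36852, had 5 exons in 1825 bases on NW_017613886.1, from 1232891 to 1235256 on the plus strand. It was at 10594, 6379 and 8860, or 8611 ± 2118 (SD, n = 3), with fish 2 lowest. This scaffold carried the most members, 86, and mRNA36852 made up 92.3% of its summed mean FPKM.

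The third, mRNA37292 on NW_017614364.1 from 2073 to 16413, had 2 exons and was at 4130, 3471 and 1069, so that fish 3 stood well below the others. The minus-strand mRNA37190 on NW_017614206.1 from 3129 to 16177 was at 2190, 1846 and 2062, and mRNA37289 on NW_017614354.1 from 9734 to 22891 at 1664, 1523 and 1696. These were even between the fish, with 2 exons each. The FPKM of mRNA41250, which had 3 exons on NW_017616256.1 from 36163 to 39344, was 1535, 1391 and 1271. That of mRNA40104, which had 6 exons on NW_017615992.1 from 177025 to 179791, was 1420, 1196 and 1518. Both varied little, with an SD of 132 and 165 around means of 1399 and 1378.

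The remaining 3 of the 10 differed more in how they varied. The 2-exon mRNA37256 on NW_017614321.1 from 9822 to 22737 was at 1425, 2016 and 632, high in fish 2 and low in fish 3. The 2-exon mRNA37051 on NW_017614025.1 from 9106 to 22241 was at 1309, 695 and 1510, low in fish 2. The 4-exon mRNA40669 on NW_017616060.1 from 119987 to 121470 was at 1089, 840 and 1136. No fish was lowest or highest throughout the 10.

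**Figure D4:**
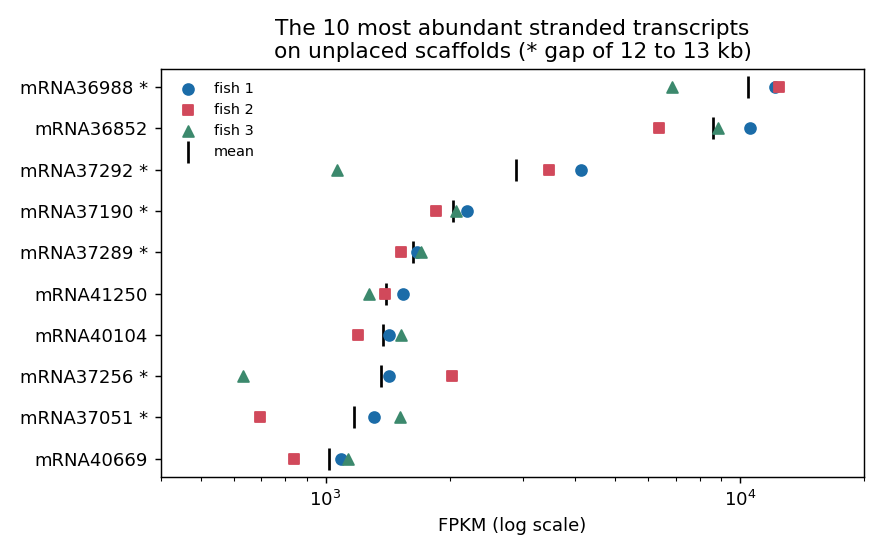
FPKM on a log scale (horizontal axis) of the 10 most abundant stranded transcripts on unplaced scaffolds, with 1 symbol for each fish and a bar at the mean of 3 fish. The 6 with an asterisk have a gap of 12000 to 13000 bases between exons, and fish 3 lies far below the others in mRNA37292.

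Among the 10 most abundant members, 6 shared a feature that the choice of members did not use. Each had 2 or 3 exons with a mean gap between exons of 12000 to 13000 bases. The gap was 12100 bases in mRNA37190, 12180 in mRNA37289, 12267 in mRNA37256, 12274 in mRNA37051 and 12873 in mRNA37292. In the 3-exon mRNA36988 it was 12266 on average over its 2 gaps. Since a 2-exon transcript has a single gap, its span less its length is the gap itself. The pattern was noticed after the values were seen, so it is given without a test.

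In all, 29 of the 1131 members with 2 to 3 exons (2.56%) had such a gap, with a median of 12357 bases, and 24 of them had 2 exons. On chromosome sequences 33 of 5744 (0.575%) did. The 29 members lay on 21 scaffolds, whose last listed transcript end was at a median of 23909 bases. Their mean FPKM ran from 0.0245 to 10484 with a median of 21.1, where the median over all members with 2 to 3 exons was 0.239. The 29 include the 6 abundant members whose gaps prompted this range, so high values are partly built into the group. A mean FPKM of 100 or more was reached by 12 of the 29, and by 18 members with 2 to 3 exons in all. None of the 33 chromosome transcripts reached it, the highest being mRNA14859 at 24.3, although 72 chromosome transcripts with 2 to 3 exons and other gaps did.

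These 29 transcripts carried a large part of the abundance on scaffolds, which the choice of the gap range from abundant members largely fixed. Their summed FPKM was 25527, 23736 and 15746 in fish 1, 2 and 3, which is 47.8%, 49.7% and 38.6% of that of all members. Of their summed mean FPKM of 21670, mRNA36988 alone gave 10484. The others of the 6 members that prompted the range gave 2890, 2033, 1628, 1358 and 1171. Most of the sum, and of the shares below, thus came from those 6. Sums without them were not computed. The 33 chromosome transcripts summed to 96.4, 86.7 and 83.6. Without transcripts of this gap in either set, the share of members in the summed FPKM of both sets fell from 7.01% ± 0.81 to 3.92% ± 0.10 (SD, n = 3), with 4.03%, 3.92% and 3.82% in the 3 fish. The fish thus differed less once they were left out. In gap bins of 500 bases from 10000 to 15000, scaffolds held 24 transcripts from 12000 to 12500, 5 from 12500 to 13000, and from 1 to 4 in each other bin. The summed mean FPKM of the first of these bins was 18305 on scaffolds and 65.5 on chromosome sequences. That bin holds mRNA36988 and others of the members that prompted the range.

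**Figure D5:**
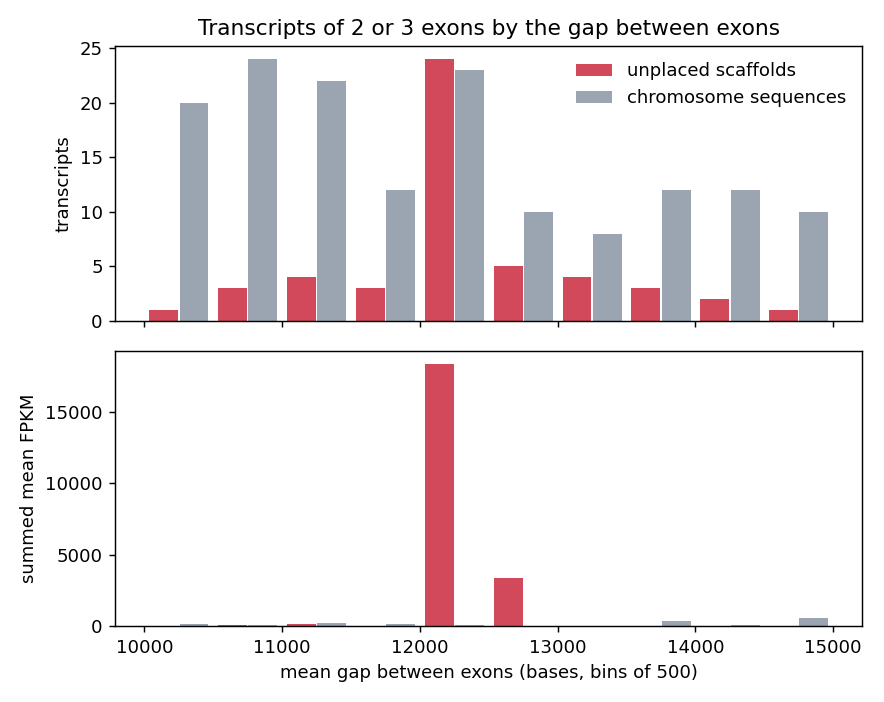
Number of stranded transcripts with 2 or 3 exons (upper panel) and their summed mean FPKM (lower panel) by the mean gap between exons in bins of 500 bases (horizontal axis), for unplaced scaffolds and chromosome sequences. Scaffolds show 24 transcripts with a summed mean FPKM of 18305 in the bin from 12000 to 12500, and few in the others.

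Several of these transcripts lay opposite each other. On NW_017614206.1 the plus-strand mRNA37189 had the same start and end as mRNA37190, at 290, 233 and 378 in fish 1, 2 and 3 against 2190, 1846 and 2062. On NW_017614354.1 the plus-strand mRNA37288 had the start and end of mRNA37289, at 237, 164 and 0 against 1664, 1523 and 1696. Such equal spans on both strands were listed for 4 members and for 0 of the 30191 chromosome transcripts. On NW_017614321.1 the plus-strand mRNA37257 began with mRNA37256 and ended within a few bases of it, at 77.6, 42.8 and 110. The minus strand was the more abundant of each of these pairs in every fish. On NW_017614052.1 the order was the other way. There the plus-strand mRNA37071 was at 111, 80.8 and 56.4, and the overlapping minus-strand mRNA37072 at 12.6, 0 and 0. The libraries were stranded, and the sources used here do not say whether alignment and assembly used this. Whether the gaps are introns was not tested, and the tables hold no exon positions. Over all members, overlap with a transcript of the opposite strand was less common than on chromosome sequences, at 9.35% against 14.4%. These shares are not on a like footing, since 256 members had no other member on their scaffold. Neighbouring loci also lay further apart, at a median of 12280 bases against 6438.

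The spread between fish was compared next. Among transcripts at an FPKM of 1 or more in all 3 fish, the median SD of log2 FPKM between fish was 0.35 over 615 members and 0.33 over 10192 chromosome transcripts. This difference of 0.027 became 0.0904 among transcripts at an FPKM of 10 or more in all 3 fish. The highest fish was at least 4-fold above the lowest for 32 of these members (5.20%) and for 4.77% of chromosome transcripts. An FPKM of 1 or more in one fish beside a listed 0 in another was seen for 193 members (6.76%), for 4.74% of chromosome transcripts and for 4.91% of both sets. Only transcripts at 1 or more in some fish can qualify, and of these it was 16.7% of 1155 members against 9.28% of 15406 chromosome transcripts. Over all transcripts the difference of 2.02 percentage points became 0.687 where one fish had to reach an FPKM of 10, and 3.80 over loci. Spearman's rho between 2 fish ran from 0.62 to 0.71 across the 2856 members and from 0.79 to 0.82 across chromosome transcripts. Transcripts are not independent replicates and members include more transcripts near 0, so these correlations are descriptions. Fish 2 was the highest of the 3 for 42.6% of the 615 members and for 35.4% of chromosome transcripts. Fish 3 was the highest for 30.2% and 41.1%, so the fish most often highest was not the same in both sets. Whole pieces of liver were sequenced, so fewer cells of a type and less RNA per cell cannot be told apart.

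The 5 members with the largest ratio between fish came from 2 scaffolds. On NW_017615071.1 the transcripts mRNA37784, mRNA37785 and mRNA37786 overlap on the minus strand from 14670 to 16697. In fish 1, 2 and 3, mRNA37786 was at 4.76, 114 and 1.51, a ratio of 75.6. Summed over the 3 transcripts the FPKM was 41.8, 165 and 4.52, so the order of the fish held for the locus with a ratio of 36.6. On NW_017616141.1 the 2-exon mRNA41016 from 77725 to 78107 was at 14.9, 67.4 and 1.00. The neighbouring mRNA41017 from 78208 to 78899 on the same strand was at 11.8, 43.0 and 1.95. The FPKM of mRNA37785 was 2.71, 19.9 and 1.23, so that fish 2 was highest and fish 3 lowest in these 4 transcripts. The fifth, mRNA37784, was at 34.3, 31.1 and 1.78, with fish 1 highest and fish 3 lowest.

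Among members listed at 0 in a fish, the highest value was that of mRNA37052, at 440 in fish 1 and 0 in fish 2 and 3. It overlaps the more abundant mRNA37051, and the sum over both was 1749, 695 and 1510. The sum differed 2.52-fold between fish, while the smaller transcript alone went from the highest value to a listed 0. The plus-strand mRNA37288, named above, was the next. On NW_017615299.1 the 2-exon mRNA38019 was at 0, 85.5 and 0, and with mRNA38020, which it overlaps, at 94.2, 196 and 87.2. The other cases had no overlapping partner on their strand. The 6-exon mRNA37867 on NW_017615097.1 from 1019017 to 1020797 was at 7.29, 0 and 85.3, where 3 reads would give at most 0.127. The 2-exon mRNA37341 on NW_017614475.1 from 7561 to 8442 was at 14.7, 50.8 and 0, where 3 reads would give at most 0.165. Both were picked for a high value in a fish beside a listed 0, so a difference far beyond that floor is built in.

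A summed mean FPKM of 100 or more was reached by 13 of the 68 scaffolds with 10 or more members and by 16 of the other 565. After NW_017613886.1 with 86, the most members lay on NW_017615097.1 with 66, NW_017615899.1 with 65, NW_017615299.1 with 54 and NW_017615056.1 with 44. The median exon number of their members was 6.5, 1.5, 1, 5 and 5 in this order. On NW_017613886.1 39 of the 86 reached an FPKM of 1 in all 3 fish, and the summed FPKM was 11369, 7039 and 9593. On NW_017615056.1 none of 44 did, and the sum was 8.04, 4.36 and 7.08. In all, 12 scaffolds with 10 or more members had none at an FPKM of 1 in all 3 fish. NW_017615899.1 stood apart in structure, with a median of 1 exon, 20 of 65 members above 0 in all 3 fish and a sum of 322, 263 and 211. The 5 scaffolds with the highest summed mean FPKM were NW_017613966.1, NW_017613886.1, NW_017614364.1, NW_017614206.1 and NW_017614354.1, and all but NW_017613886.1 carried 1 or 2 members.

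The extremes of structure were found at low or moderate abundance. With 73 exons in 11123 bases, mRNA40752 on NW_017616075.1 from 78308 to 136808 had the most exons, at an FPKM of 0.198, 0.0459 and 0.291. The longest, mRNA39852 on NW_017615967.1 from 147958 to 185564, was a single exon of 37607 bases at 7.95, 10.3 and 8.26. It shared its locus with 4 further transcripts. The widest span, 406425 bases, was that of the 4-exon mRNA38508 on NW_017615861.1 from 63031 to 469455. It was only 518 bases long and stood at 2.01, 0.258 and 0.105.

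Scaffolds also differed in what surrounded the members. Overlapping transcripts of a strand joined into 2248 loci, of which 440 (19.6%) held 2 or more transcripts, against 31.0% of 21111 loci on chromosome sequences. The most transcripts in a locus were 9 and 36. Only 31 members (1.09%) began within 1000 bases of the first base of their scaffold, and 0 chromosome transcripts did. These counts are not on a like footing, since there are 633 scaffolds and only 23 chromosome sequences to begin on. Scaffold lengths are not in the tables, so the distance to the other end was not analysed here. On the same 633 scaffolds 1429 transcripts had no strand, or 50.04 per 100 members, against 21.5 per 100 stranded transcripts on chromosome sequences.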

How the data were processed

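Liver libraries of 3 ON fish were analysed, grouped by the sample titles. The authors aligned paired 75 bp reads to ASM185804v2 with HISAT2 2.1.0 and assembled transcripts with StringTie and the reference annotation. Replicates were merged into 1 set per species. The methods state that unexpressed and duplicated transcripts were then removed, although 31 members are listed at 0 in all 3 fish. They also describe clustering similar transcripts of a locus and joining each cluster into 1 transcript with the exons of all. That step would bear on exon number, length, gaps and transcripts per locus. Whether the listed transcripts had passed through it was not determined here. Every transcript has an FPKM and a mean coverage in each library as deposited. Read counts were not used, and no count model was fitted. Aligned bases were computed from coverage divided by FPKM, constant within a library to a relative tolerance of 0.0001 above an FPKM of 50.

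Members were chosen by strand and sequence name. The members, measures and comparisons were chosen with earlier results of these data known. Each measure was taken in both sets in each fish, and the 3 differences were tested with a two-sided exact sign-flip permutation. Detected means an FPKM above 0 and no pseudocount was added. Transcripts on a sequence and strand with overlapping spans were joined into loci, which was checked on 600 simulated spans with 0 differing from direct comparison. Named are the 10 members with the highest mean FPKM, the 5 with the largest ratio between fish among those at 1 or more in all, the 5 highest among those at 0 in a fish, the extremes of exon number, length and span, and the 5 leading scaffolds by members and by FPKM. Members named with the gap pattern or as partners of these were chosen after their values were seen. Gene names were not used, as the gene table at hand is of another assembly. Alternatives covered minimums, pseudocounts, loci, exon number, coverage and leaving out each fish. Tables were handled with pandas 2.3.3 under Python 3.11.15, tests used scipy 1.17.1 and numpy 2.4.6, and plots matplotlib 3.10.9.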

Additional observations from a re-analysis of the deposited data

Results flagged for a closer look

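Transcripts without a strand on the 633 scaffolds that carry members entered no comparison, yet they held signal above the level that 3 reads allow. Their summed FPKM was 7064, 7661 and 2990 in fish 1, 2 and 3, a mean of 5905, and 852 of the 1429 lay at or above the FPKM of 3 reads in all 3 fish. Among stranded transcripts 43.6% of members and 60.9% of those on chromosome sequences did, so the count is not particular to them. The most abundant was mRNA37426 on NW_017614566.1 from 3938 to 4873, at 3952, 3755 and 5.65, which was low in fish 3 alone. Its mean was 2571 of the 5905, and most of the lower sum in fish 3 came from it.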

How the results depend on the processing

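Of 67 alternative values, none turned in direction and 60 were counted as unchanged. For tested differences this required only the same sign, since no p can fall under 0.05 with so few fish. For the others it meant a move of less than the spread. The count therefore says little of the size of tested differences. Thus the difference in median log2 FPKM shrank from -0.80 to -0.19 among transcripts at an FPKM of 1 or more in all 3 fish. The share of summed FPKM on scaffolds went from 7.01% to 5.9996% without the most abundant transcript of each set and to 3.92% without transcripts of the 12000 to 13000 base gap. Summed over loci, the difference in detection in all 3 fish went from -15.1 to -20.4 percentage points. The difference in transcripts of 1 exon went from 7.65 to 12.05 percentage points among those above 0 in all 3 fish. The difference in the median SD of log2 FPKM between fish went from 0.027 to 0.0904 at an FPKM of 10 or more, and that in transcripts at 1 or more in one fish and 0 in another from 2.02 to 0.687 at 10 or more and to 3.80 over loci. With zeros included, the difference in median log2 FPKM was -0.36 on the log2(FPKM + 1) scale and -1.06 on the log2(FPKM + 0.1) scale. Its size thus depends on the value added. The cause of the difference itself was not tested. Without each fish in turn the difference in median log2 FPKM ran from -0.86 to -0.76, in transcripts above 0 from -8.99 to -8.22, in those at 1 or more from -12.3 to -11.2, and the share of FPKM from 6.76% to 7.48%. With 2 fish the exact sign-flip permutation cannot go below 0.50, so its p says nothing about stability. The spread used for counts over the merged set was the SD between single chromosome sequences. Settings that leave out NC_031968.1, the gap transcripts or values under 3 reads were chosen after seeing the data. No paired analysis was possible between species because the replicate numbers shared with the other species mark different fish and no species were compared. Within each fish both sets of transcripts were paired, and the sign-flip permutation used the 3 differences. Depth limits what is said of members near 0, since 407, 383 and 356 members above 0 in fish 1, 2 and 3 lay under the FPKM of 3 reads.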
